A study of Mus musculus with 4 samples.

Results

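A set of 1676 strong, evenly bound distal p63 sites was selected from peaks that were listed in both wild-type (WT) and p63 alphaKO mouse epidermis. Each WT peak was paired with the alphaKO peak that shared the most bases with it, which gave 7066 pairs from 10616 WT and 14593 alphaKO peaks. The log2 ratio of alphaKO to WT pileup, the depth of ChIP fragments stacked at a summit, was centred on the median pair. A pair was kept when this centred ratio lay between -1 and 1, the WT pileup was at least 150, and the WT summit lay more than 1 kb from every end of a protein-coding gene. The core sites so chosen made up 23.7% of the pairs, 15.8% of the WT list and 11.5% of the alphaKO list.

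The tissue was dorsal epidermis of newborn mice (postnatal day 0), freed from the dermis with Dispase, and p63 was precipitated with the antibody EPR570. There was 1 ChIP library from wild-type mice and 1 from mice labelled p63 alphaKO, and an input library of each genotype was not used here. The labels do not say which allele alphaKO stands for, and no source read for this work gives the number, sex or strain of the animals or says whether several were pooled. Because each genotype had a single ChIP library, the spread between replicates is unknown and no difference between genotypes was tested. Shares are given with 95% Wilson intervals, which cover counting error only.

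p63 is a transcription factor of the p53 family that holds stratified epithelia in their basal, proliferative state and is needed to form epidermis. It binds DNA as a tetramer at paired copies of a short motif, often in enhancers far from gene starts, and its gene yields isoforms that differ at both ends, the alpha forms carrying a long carboxy-terminal tail. Basal keratinocytes attach to the basement membrane through integrins, laminins and plakins, and their daughters build desmosomes and the cornified layers above.

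A few core summits fell in a window of RefSeq sequence, from 250 bases before to 50 bases after an annotated gene start (build GRCm38.p6, which mm10 names), and these show what lay under a core summit at base resolution. All 21 such sites lay more than 1 kb from the outer ends of protein-coding genes, so their windows belong to inner starts of such genes or to noncoding RNA genes. The stretches below run 5′ to 3′ on the strand of the named gene, upstream of its start and within 75 bases of the WT summit. Capitals mark a pair of p53-family half-site cores (C, 2 bases that are each A or T, then G, repeated after 6 bases) or the letters TGANTCA, the motif of AP-1. The first 4 were chosen because a core pair lay close to the summit, the fifth because it held an AP-1 motif alone, and the sixth because neither motif was in it.
Bbc3, chr7:16309418-16309568, plus strand: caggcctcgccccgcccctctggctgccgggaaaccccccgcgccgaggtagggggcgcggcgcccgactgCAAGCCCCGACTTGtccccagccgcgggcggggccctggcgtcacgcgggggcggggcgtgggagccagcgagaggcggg
Rps27l, chr9:66946216-66946366, plus strand: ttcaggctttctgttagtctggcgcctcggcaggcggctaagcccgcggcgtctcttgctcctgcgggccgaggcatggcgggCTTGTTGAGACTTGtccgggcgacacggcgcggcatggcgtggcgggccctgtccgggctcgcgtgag
Gm30257, chr2:72733571-72733719, plus strand: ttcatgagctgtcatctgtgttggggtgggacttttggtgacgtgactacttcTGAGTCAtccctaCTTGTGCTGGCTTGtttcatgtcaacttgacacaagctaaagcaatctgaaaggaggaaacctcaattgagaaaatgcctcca
AI197445, chr13:107469572-107469649, plus strand: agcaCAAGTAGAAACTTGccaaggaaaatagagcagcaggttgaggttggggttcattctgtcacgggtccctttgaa
Gm46359, chr12:78910831-78910973, plus strand: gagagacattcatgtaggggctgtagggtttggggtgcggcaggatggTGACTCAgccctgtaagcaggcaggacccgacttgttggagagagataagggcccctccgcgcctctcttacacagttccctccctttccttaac
Dst, chr1:34160036-34160186, plus strand: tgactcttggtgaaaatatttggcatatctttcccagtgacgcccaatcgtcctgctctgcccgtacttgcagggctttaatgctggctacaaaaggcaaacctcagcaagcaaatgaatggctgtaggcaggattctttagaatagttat

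The centre of the marked core pair lay 3 bp from the WT summit at Bbc3, which encodes a pro-apoptotic BH3-only protein, and 15 bp from it at Rps27l, a ribosomal-protein-like gene. It lay 0 bp from the summit at Gm30257, a noncoding gene whose nearest protein-coding end is that of Sp3, 202.8 kb away, and 9 bp from it at AI197445, whose nearest is that of Zswim6, 255 kb away. At Gm30257 an AP-1 motif lay close by, upstream of the pair. The pileup was 991 in WT and 995 in alphaKO at Bbc3, 616 and 740 at Rps27l, 585 and 710 at Gm30257, and 352 and 462 at AI197445. At Gm46359, nearest to Plek2, the values were 662 and 655, and at the inner start of Dst, which encodes the hemidesmosomal plakin BPAG1, they were 396 and 549. The raw pileup was thus slightly to moderately higher in alphaKO at 5 of these 6 sites and lower at Gm46359. It was higher in alphaKO at 78.7% of all core sites and 74.7% of all pairs. On the centred scale all 6 lay below the median pair, from -0.51 at Gm46359 to -0.02 at Dst.

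Counted over windows rather than sites, and on both strands, a core pair with A or T in the middle was found in 9 of the 23 windows that held a core summit (39.1%, 22.2 to 59.2), against 7.21% of all 32817 windows. This form was chosen only once the data had been seen, so the contrast describes these windows and is not a test. In the 66 windows with the summit of a strong, even pair at a gene end the share was 28.8% (19.3 to 40.6). TGANTCA was found in 5 of the 23 windows (21.7%, 9.66 to 41.9), in 12.1% (6.27 to 22.1) of the 66 and in 7.81% of all. The 23 windows came from 21 sites, and those near Plek2 and Hmgb1 were each counted in more than 1 window. The intervals treat all windows as separate. By site, upstream of the start and within 75 bases of the WT summit, 7 of 21 held the core pair and 3 held TGANTCA. The looser form that allows any 2 middle bases (CNNG repeated after 6 bases) was in all 23 windows but also in 98.5% of the 66 and 70.2% of all windows, and CATG repeated after 6 bases was in 0 of the 23 (Wilson upper limit 14.3%), in 3.03% of the 66 and in 0.710% of all. The looser form contains both stricter forms of the pair, each window is 300 bases long, and a match only describes letters.

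Core sites were an upper slice of the WT list by construction, and the limits on WT pileup and ratio together also set a lower bound on the alphaKO pileup, so high ranks in both lists follow from the rule. A group of 17 sites was set apart first, because the local background recovered from the peak caller's fold enrichment was above 50 there. Of these, 14 lay together between positions 3000312 and 3035417 of chromosome 9, more than 300 kb from Alkbh8. The highest of all, on chromosome 2 and 1035 kb from Lrrc4c, had a pileup of 78190 in WT and 75861 in alphaKO but a fold enrichment over its background of only 1.29 and 1.30. These 17 places held the 16 highest pileups of the whole set, and all but the site near Vmn1r77 (fold 3.95 in WT) had a WT fold of 1.10 to 1.66. They are counted in the 1676 and left out of the descriptions that follow, which rest on 1659 sites.

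In these 1659 sites the WT pileup ranged from 150 to 1645 with a median of 224, and the alphaKO pileup from 109 to 2496 with a median of 322. The raw pileup was higher in alphaKO at 79.5% of them, beside a median alphaKO to WT ratio of 1.404 over all pairs. Measured against that median, 57.2% of core sites lay below 0 and 69.3% lay within 0.5 of it on the log2 scale, with a median of -0.09. These ratios are what the rule used, and 19.9% of all pairs lay at or beyond 1 on this scale and so could not be members. The median member stood at 9.59% from the top of the WT list and 11.5% from the top of the alphaKO list, and 78.1% of members were within the top 20% of the alphaKO list. The lowest-ranking member in alphaKO stood 48.6% from the top.

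**Figure D1:**
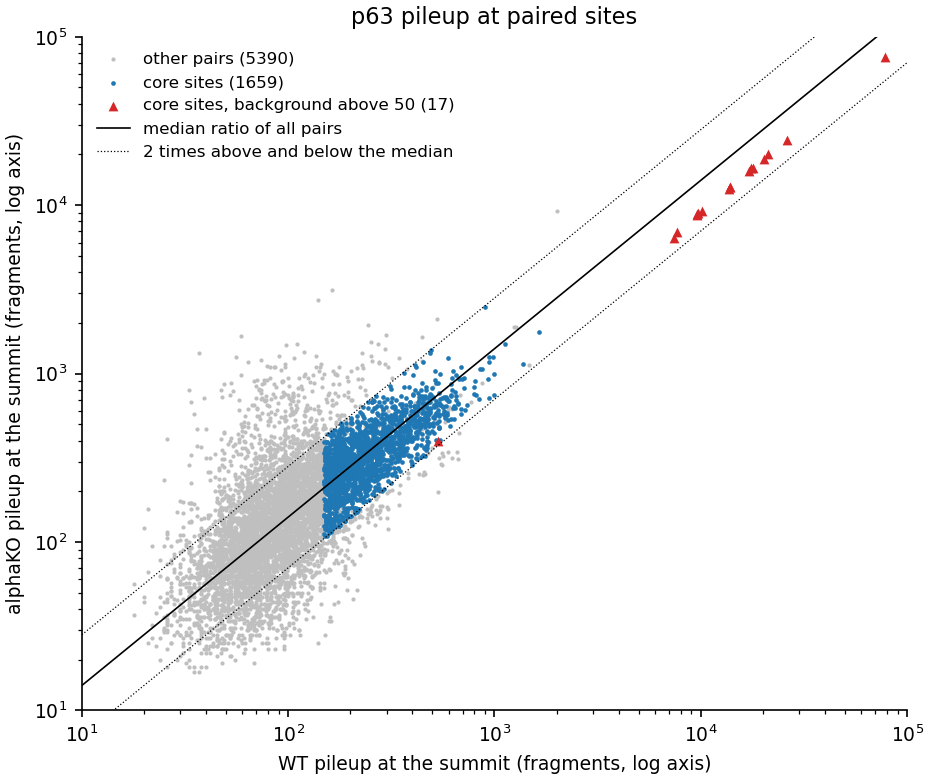
Pileup at the summit in WT (horizontal, log axis) and alphaKO (vertical, log axis) for all 7066 pairs, 1 point per pair. The 1659 core sites (blue) begin at a WT pileup of 150 and lie between the dotted lines by the rule, and 16 of the 17 sites with a background above 50 (red triangles) lie far to the upper right.

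The centred ratio varied with WT pileup and with the library in which strength was set. In 4 groups of rising WT pileup (150 to 181, 181 to 224, 224 to 314 and 314 to 1645) the median centred log2 ratio was 0.03, -0.04, -0.08 and -0.21. When strength was set in the alphaKO list instead, at the same limit multiplied by the median ratio, 1841 sites qualified, 1392 of them in common with the 1676 (83.1% of one set and 75.6% of the other). The median ratio was then 0.19 rather than -0.10. A small lean of the median ratio to either side therefore moved with the library in which strength was set. The groups of rising pileup were not recomputed under that rule, and why the ratio fell across them was not tested.

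By the authors' fold enrichment, which divides the pileup by a local background, the core sites had a median of 23.9 in WT and 40.3 in alphaKO. The centred log2 ratio of these folds was at or above 1 in 3.26% of core sites, beside 10.8% of all pairs, and at or under -1 in 5.00%, beside 9.18% of all pairs. The fold shares its pileup with the measure that chose the members, so these lower shares are partly set by the rule. The recovered background itself had a median of 9.07 in WT and 7.27 in alphaKO.

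The strongest core sites lay in or near genes of varied roles. Without the 17 places of high background, the top site was inside Dusp7, which encodes a phosphatase of MAP kinases (chr9:106370608-106371621), with a pileup of 1645 in WT and 1772 in alphaKO. It was followed by a site 7.15 kb outside Cdh3, the gene of P-cadherin, with 1381 and 1146. Inside Ajuba, a LIM protein of cell junctions and Hippo signalling, 1 site had 1125 and 1497 and another, beside it, had 801 and 909. All 4 sites were high in both libraries, and of them the Cdh3 site alone had the lower raw value in alphaKO.

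A site 83.5 kb from Mylip, which encodes a ubiquitin ligase for lipoprotein receptors, had 993 in WT and 745 in alphaKO. The site in Ppm1f, a protein phosphatase gene, had 986 and 1249, and the site 26.9 kb from Egfl7, an endothelial secreted factor, had 945 and 714. Inside Trp63 itself the strongest site had 939 and 1168. Mmrn2, an extracellular matrix protein of vessels (936 and 1246), and Jag2, a Notch ligand of the basal layer (935 and 930), followed with nearly the same WT value. Among these leading sites the centred log2 ratio ran from -0.90 at Mylip to -0.08 at Mmrn2 and Ajuba, so all were at or below the median pair.

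The next site in order, 134 kb outside Zmiz1, a transcriptional coregulator gene, was unlike the others. Its pileup was 900 in WT and 2496 in alphaKO, the highest alphaKO value of any core site, and its centred ratio of 0.98 was just inside the limit. Sites near Gltp (840 and 706), a glycolipid transfer protein, and Cebpa (815 and 748), a transcription factor of differentiating keratinocytes, were lower in alphaKO, and both lay just beyond the distance limit, at 1.10 and 1.03 kb from the gene end.

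**Figure D2:**
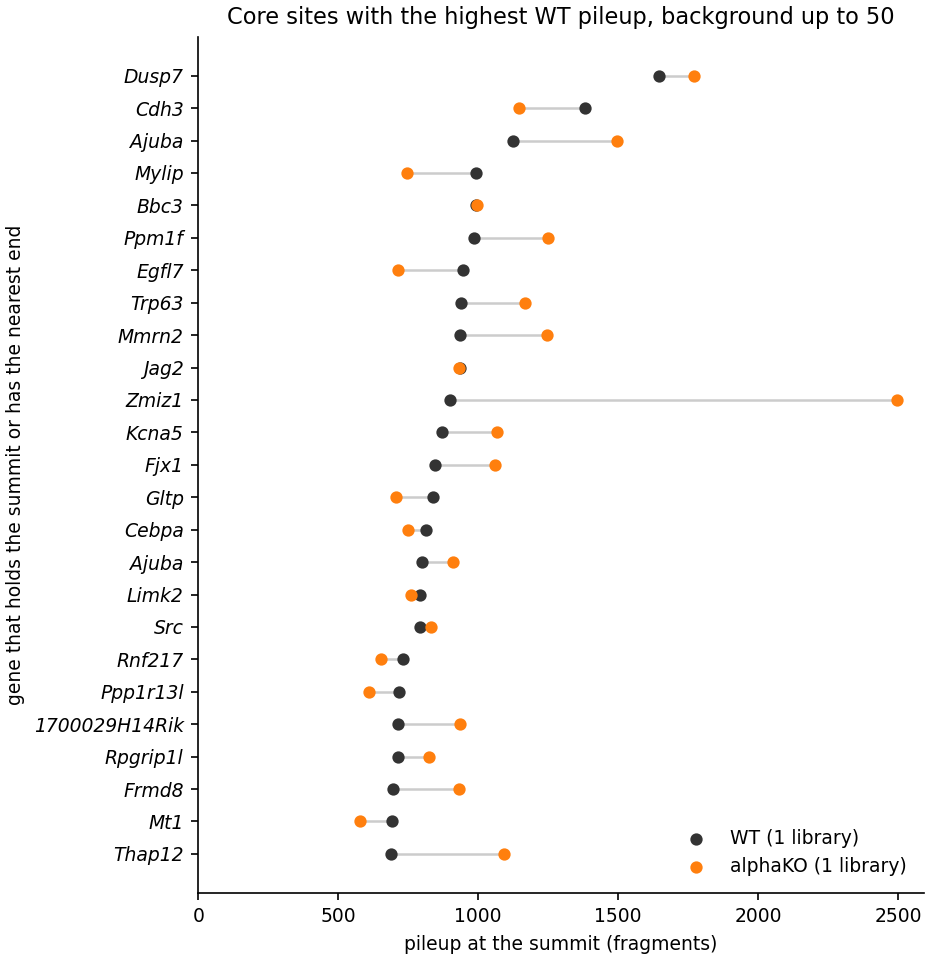
Pileup at the summit in WT (black) and alphaKO (orange), 1 library each, for the 25 core sites with the highest WT pileup among those with a background up to 50, named by the gene that holds the summit or has the nearest end. The alphaKO value near Zmiz1 (2496) stands apart from the rest, which reach 1772 at Dusp7.

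The summit position, which the limits on strength and evenness did not use, was nearly the same in both libraries. The WT and alphaKO summits lay a median of 5 bp apart, 76.0% of core sites (73.8 to 77.9) had them within 10 bp and 98.4% within 50 bp, and at 95 sites (5.73%) the base was identical. Weaker even distal sites, of which there were 3354 with a WT pileup under 150, had a median distance of 9 bp, and 53.8% (52.1 to 55.4) were within 10 bp. Strong distal pairs that failed the evenness limit had a median of 10 bp where WT was higher (111 pairs) and 4.5 bp where alphaKO was higher (66 pairs). Strong even pairs at gene ends had 4 bp (184 pairs). A higher pileup gives more fragments from which to place a summit, and the median pileups of the weaker sites were 82 in WT and 116 in alphaKO, so these distances and depth cannot be told apart.

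**Figure D3:**
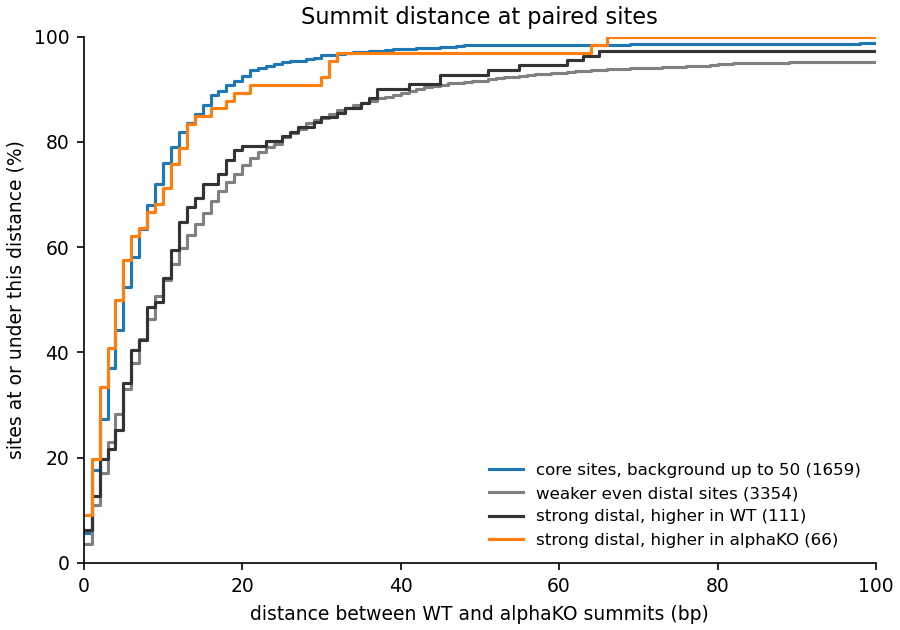
Share of sites (vertical, %) whose WT and alphaKO summits lay at or under a given distance (horizontal, bp), for core sites and 3 other groups of distal pairs. The core curve reaches 76.0% at 10 bp, above the curve of the weaker even distal sites at 53.8%.

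Only 21 core sites had summits more than 100 bp apart, and these were broad. The wider peak of the pair had a median width of 1055 bp there and 527 bp at the remaining 1638 sites. The largest distances were 860 bp at 14.4 kb from Fosl2, an AP-1 subunit (297 in WT and 393 in alphaKO), 858 bp inside Mdm4, a regulator of p53 (264 and 348), and 833 bp at 23.3 kb from Nhlh2, a neuronal transcription factor (331 and 559). At Mdm4 both peaks were broad, 1318 bp in WT and 1397 bp in alphaKO, whereas near Fosl2 a WT peak of 1253 bp met an alphaKO peak of 509 bp. Such places met the limits on strength and evenness, but the highest point was not the same in both libraries. Broad peaks did not always shift, since 217 core sites had a peak of 800 bp or more and 17 of them were among the 21.

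Peaks at core sites had a median width of 472 bp in WT and 512 bp in alphaKO. The difference in width followed the ratio of heights. Where the centred ratio was between -1 and -0.5 (328 sites) the median alphaKO peak was 16.5 bp narrower, and it was wider by 19 bp, 70 bp and 109 bp in the next bins, of 621, 529 and 181 sites. Whether the called width depends on height alone was not tested, so this only describes the calls. The broadest sites, near Vmn1r238 (5918 bp in WT) and Vmn1r2 (2446 bp), also had the lowest folds of the 1659, at 5.43 and 5.75 in WT, and their recovered background of 27.5 and 29.6 fell below the limit of 50.

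Slightly more of the core sites than of all pairs lay inside genes. The summit was in the body of a protein-coding gene at 909 of 1659 sites (54.8%, 52.4 to 57.2; 54.2% of all 1676). The share was 49.8% (48.1 to 51.5) in the weaker even distal sites, 45.1% (36.1 to 54.3) in strong distal pairs higher in WT and 43.9% (32.6 to 55.9) in those higher in alphaKO. It was 50.6% (49.4 to 51.8) in all pairs and 52.2% (45.0 to 59.3) in strong even pairs at gene ends. Within the core set the share was 46.0% at ratios from -1 to -0.5 and 54.6%, 59.9% and 56.4% in the following bins, although evenness at this scale was the rule itself. The gene table lists no exons, so summits were not divided into exons and introns.

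Along genes, core summits thinned out towards the far end. For 715 summits in genes whose strand the promoter table gives, the 5 equal parts of the gene from start to end held 24.8%, 22.9%, 20.1%, 17.8% and 14.4% (12.02 to 17.2). Weaker even distal sites gave 25% in the part next to the start and 19.1% in the part next to the end, with the other parts between 16.6% and 20.2%. Both sets leave out the 1 kb at either end of a gene, which lowers the outer parts.

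**Figure D4:**
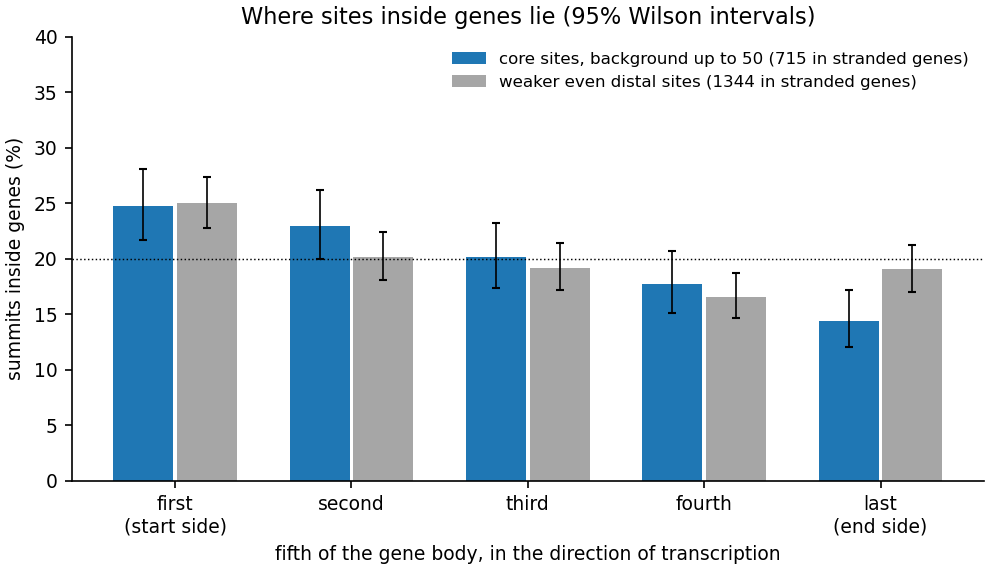
Share of in-gene summits (vertical, %) in each of 5 equal parts of the gene body from start to end, for 715 core summits and for weaker even distal summits, with 95% Wilson intervals that cover counting error only. The dotted line marks 20%, and the core bars fall from 24.8% to 14.4%.

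The median distance from a core summit to the nearest end of a protein-coding gene was 20048 bp, compared with 24819 bp for the weaker even distal sites. It was shorter still in the strong distal pairs higher in WT (12827 bp) and in those higher in alphaKO (18993.5 bp). A distance above 100 kb, outside any gene body, was found at 8.68% of core sites. The share was 12.2% in the weaker even distal sites, 4.51% in the strong distal pairs higher in WT and 13.6% in those higher in alphaKO. The farthest core site lay 931.9 kb from Gata3, a transcription factor of epidermal and hair differentiation, with a pileup of 168 in WT and 302 in alphaKO. In order of distance it was followed by sites 820.8 kb from Tenm4 (271 and 456), a teneurin, 720 kb from Gata3 (193 and 241), 702.7 kb from Epha4 (254 and 269), an ephrin receptor, and deep inside Macrod2, 699.5 kb from its nearer end (189 and 327). The WT values of these 5, from 168 to 271, lay around the core median of 224, and a nearest gene need not be the gene a site acts on. Listed starts, noncoding and inner ones included, were within 1 kb of 5.36% of the 1605 core sites outside chromosome 18, which the promoter table does not cover. The table also lacks starts of some other genes, so such shares are lower bounds. For the strongest site inside Trp63, a gene of 208.3 kb, the nearest listed start was 408069 bp away. The share was 4.48% in the weaker even distal sites and 11.95% in all pairs, which include those at gene ends.

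Other p63 peaks were common around core sites. Another peak of either list lay within 50 kb of 86.4% of them (84.7 to 88.0; 86.6% of all 1676) and within 10 kb of 48.0% (45.6 to 50.4). In the weaker even distal sites these shares were 77.2% (75.7 to 78.6) and 36.9% (35.3 to 38.6). They were 92.8% and 69.4% in the strong distal pairs higher in WT, and 71.2% and 34.8% in those higher in alphaKO. The core sites thus stood between the uneven sets, and above the weaker sites by more than the counting intervals, which do not allow for neighbouring sites being counted in each other's favour.

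Another core site lay within 50 kb of 27.6% of the core sites. Joined in steps of up to 50 kb, the 1659 sites formed 1404 groups, of which 1201 held a single site, 160 held 2, 36 held 3 and 7 held 4 or more. The centred log2 ratio of adjacent sites in a group differed by a median of 0.45 (quartiles 0.22 and 0.72, 255 adjacent pairs). The same difference was not computed for core sites of separate groups, so whether neighbours were more alike is not known. Over all core sites the quartiles of the ratio itself, an unlike measure, were -0.41 and 0.25. The group in and beside Efcab1, a calcium-binding protein gene, was an even one. Its 5 sites over 56.1 kb had WT pileups of 176, 348, 353, 314 and 378 and alphaKO pileups of 284, 526, 559, 570 and 537, and all lay slightly above the median pair (0.02 to 0.37).

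A group of 5 sites over 60.4 kb lay beside Mir205, whose product miR-205-5p is abundant in stratified epithelia. The nearest protein-coding gene is Camk1g, 138.1 kb or more away. The WT pileups, in order along the chromosome, were 377, 239, 330, 420 and 255, and the alphaKO pileups were 473, 385, 454, 492 and 678, so the fifth site alone was more than 2 times as high in alphaKO. The 3 nearest summits lay 0.899, 6.99 and 14.8 kb from the hairpin (chr1:193507463-193507530).
A core site also lay 3.67 kb from Mir200b, 4.44 kb from Mir200a and 5.43 kb from Mir429, the cluster of the miR-200 family that keeps epithelial identity by repressing Zeb1 and Zeb2. Its pileup was 347 in WT and 537 in alphaKO. The mature sequences from RefSeq, with the seed (bases 2 to 8) in capitals, show that miR-200b-3p and miR-429-3p share a seed and that miR-200a-3p has its own.
mmu-miR-205-5p: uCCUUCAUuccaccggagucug
mmu-miR-200b-3p: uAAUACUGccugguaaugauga
mmu-miR-429-3p: uAAUACUGucugguaaugccgu
mmu-miR-200a-3p: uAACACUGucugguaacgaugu
Of 1005 miRNA hairpins in the table, 49 lay within 20 kb of 42 core sites. The share near other p63 peaks was not computed, so this count does not set core sites apart. Mir205 and the miR-200 cluster were singled out from the 49, which also included Mir208a, Mir202 and Mir34a. No levels of these miRNAs were measured here.

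The groups of 4 sites differed in their ratios, which the rule limits to between -1 and 1. At the Sprr2a genes, small proline-rich proteins of the cornified envelope, and nearest to Lelp1, 4 sites had WT pileups of 205 to 398 and alphaKO pileups of 171 to 285, and 0 of 4 lay above the median pair (-0.97 to -0.59). In and near Dsp and Riok1 0 of 4 lay above it as well (-0.42 to -0.08), and in and near Tekt5 and Emp2 1 of 4 did (-0.91 to 0.15). In Trp73, a p53-family gene, 4 sites lay on both sides of it. Their WT pileups were 297, 258, 261 and 329 and their alphaKO pileups 363, 401, 686 and 260, with ratios from -0.83 to 0.90. In Nectin1, a junction protein gene mutated in a form of ectodermal dysplasia, the WT values of the 4 sites were 229, 204, 546 and 248, and the alphaKO values 430, 192, 661 and 234.

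The core sites were named by 1336 genes, and 1101 of these had 1 site, 171 had 2 and 64 had 3 or more. Tiam1, an activator of Rac, had the most, with 7. Pileups of its 7 sites were 413, 326, 236, 207, 164, 160 and 152 in the WT library and, in the same order, 645, 640, 366, 403, 279, 252 and 301 in the alphaKO library. Of these sites 6 were inside the gene, which is 358.5 kb long. All 7 were higher in alphaKO on the raw scale, as were 79.5% of core sites. Their centred log2 ratios ran from 0.14 to 0.50. Efcab1 had 6 sites, and Foxp1, a forkhead repressor, had 5, all inside the gene, with 166 to 355 in WT and 246 to 658 in alphaKO. Gata3 had 4, none closer than 155.6 kb, of which the strongest had 673 and 931. Myc, the growth regulator, likewise had 4 sites, 74.6 to 531.2 kb away, the strongest with 591 and 586, and Ptpn13, a phosphatase gene, had 4 with 201 to 489 in WT and 143 to 761 in alphaKO.

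Genes were then looked up by function, counting a gene when a core site lay in its body or within 50 kb of it. Over all 21887 protein-coding genes, 12.4% had such a site and 3.48% had one in the body. Over 19 lists of epidermal and other genes, 110 of 293 genes had one (37.5%). Gene length was not matched, and because flanks of neighbours overlap, 1 site can count for several genes.

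Genes that anchor basal keratinocytes were covered most often, with 17 of 22 marked and 9 in the body. The Cdh3 site led them. Col17a1, a hemidesmosomal collagen, had its strongest site 16.0 kb away with 481 in WT and 445 in alphaKO, Itga3, an integrin subunit, had 470 and 514 at 20.3 kb, and Lama5, a laminin chain, had 443 and 440 at 10.7 kb. In Lama3, an alpha chain of the basal-layer laminin, 4 sites lay inside the gene. Their WT values were 301, 424, 269 and 236, and their alphaKO values 361, 628, 582 and 364, all higher on the raw scale, as were 79.5% of core sites. In the same order, the centred log2 ratios were -0.23, 0.08, 0.62 and 0.14. The basal keratin genes Krt5 and Krt14 had their strongest core sites just past the 1 kb limit, with 193 and 318 for Krt5 and 211 and 423 for Krt14. Itgb1, Lamb3, Bcam, Col7a1 and Nid2 had none.

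In the list of desmosomes and cell adhesion, 8 of 19 genes were marked, 6 in the body. Cdh1, E-cadherin, counted through the Cdh3 site, 39.3 kb away. Dsp, which encodes desmoplakin, had its strongest site inside the gene with 581 in WT and 645 in alphaKO and 2 weaker ones 27.3 and 32.6 kb outside. Jup, plakoglobin, had its strongest site at 9.36 kb, with 387 and 484. The desmosomal cadherin Dsc1 was marked (235 and 174 at 28.8 kb), but Dsc2, Dsc3, Dsg1a, Dsg2 and Dsg3 were not.

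Of 22 genes of suprabasal and cornified layers, 11 were marked but 2 in the body, Krt10 and Ppl. Krt10, the keratin of the spinous layer, had 388 in WT and 521 in alphaKO. Grhl3, a transcription factor of barrier formation, had 471 and 360 at 24.1 kb, Sfn, 14-3-3 sigma, had 396 and 303 at 5.36 kb, and Krt2 had 318 and 711 at 40.2 kb. Grhl3 and Sfn were thus lower and Krt2 higher in alphaKO on the raw scale. Of 16 genes of barrier lipids 2 were marked (12.5%, beside 12.4% of all genes), Gltp and Elovl4, neither in the body. Elovl4, an elongase of very long fatty acids, had 174 and 333 at 16.9 kb.

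Transcription factors of the epidermis were marked in 16 of 32 cases and in the body in 8. After Trp63 and Cebpa came Grhl2, a regulator of epithelial junctions, with 637 in WT and 642 in alphaKO at 34.7 kb. Of 12 genes of AP-1 and stress factors 6 were marked, and none in the body. Atf3 had 485 and 500 at 10.4 kb and Fosb 472 and 420 at 12.5 kb. Fosl2 had 297 and 393 at 14.4 kb, and Fos 274 and 235 at 21.9 kb.

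Signalling genes were covered unevenly. In the Hippo pathway, which restrains growth through YAP and TEAD factors, 9 of 13 genes were marked and 2 in the body. Besides Ajuba these included Tead3 (563 in WT and 574 in alphaKO), Yap1 (336 and 532 at 28.4 kb) and Vgll3 (285 and 576 at 2.88 kb). Of 21 Wnt and Hedgehog genes, 10 were marked and 7 in the body, led by Ctnnb1, beta-catenin (640 and 773 at 14.1 kb), and by sites inside the ligand genes Wnt10a (589 and 570) and Wnt4 (511 and 441) and the receptor gene Lgr6 (445 and 585). In the Notch list 5 of 13 were marked and 4 in the body. After Jag2 came the receptor Notch2 (219 and 282), the ligand Dll1 (210 and 292 at 41.2 kb) and Lfng, a modifier of Notch (201 and 511), with Lfng the highest of these 3 in alphaKO.

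In the EGF and MAP kinase list 8 of 21 were marked and 2 in the body. After Dusp7 came the ligand Tgfa, with 309 in WT and 531 in alphaKO at 14.3 kb. The inhibitor Spry1 had 266 and 209 at 9.38 kb, and the ligand Hbegf 216 and 261 at 19 kb. Fgfr2 (294 and 459, inside the gene) and Fgfr3 (201 and 178, 25.1 kb away) were marked among 4 FGF receptor genes. Of 20 hair follicle genes 8 were marked and 3 in the body. Dlx2 had 505 and 720 at 48.0 kb, and Krt79 350 and 338 at 40.7 kb. Dlx3 counted through the site shared with Itga3, 23.0 kb away, and Bmp7 had 414 and 363 inside the gene.

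Of 20 textbook p53 targets 4 were marked (20% of them), which were Bbc3, Btg2, an antiproliferative gene (522 and 650), Gadd45b (158 and 113) and Perp, a desmosome protein (151 and 317). Cdkn1a and Mdm2 were among the 16 without a core site. Of 18 chromatin regulators 2 were marked (11.1%, beside 12.4% of all genes). These were Bptf (431 and 726 at 5.64 kb) and Uhrf1 (343 and 425, inside the gene). Markers of other cell types were marked in 1 of 10 cases for melanocytes (Pmel, 402 and 419 at 22.6 kb). The count was 1 of 10 for dermal fibroblasts (Col1a1, 157 and 162 at 40.1 kb) and 1 of 9 for immune cells (Cd3e, 178 and 265 at 18.4 kb). For neurons it was 1 of 10 (Rbfox3, 150 and 268 at 3.78 kb). These shares, 10% to 11.1%, lay near the 12.4% of all genes. For endothelium 2 of 8 were marked (25% of them, beside 12.4% of all genes). These were Vwf (364 and 567 at 49.45 kb) and Pecam1 (343 and 361, inside the gene). Peaks do not measure transcripts, so these counts say where p63 sites lay and not which cells were in the sample.

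**Figure D5:**
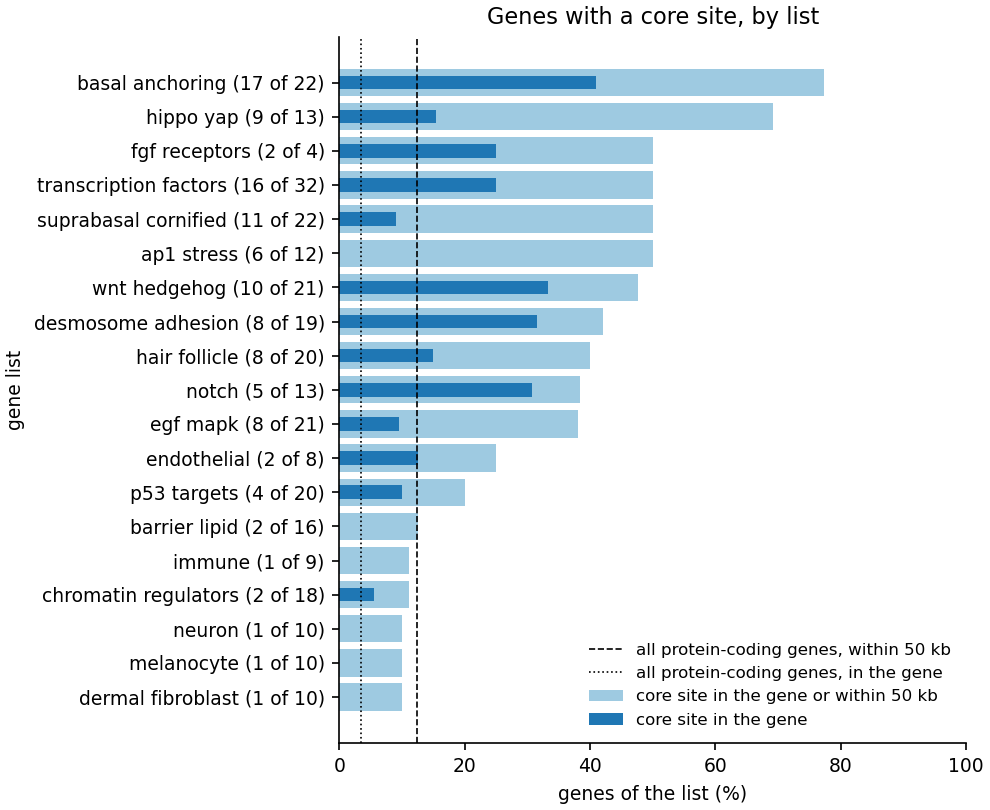
Share of the genes of each list (horizontal, %) with a core site in the body or within 50 kb (light bars) and in the body (dark bars), with marked and listed numbers beside each list. The dashed and dotted lines mark the shares over all protein-coding genes, 12.4% and 3.48%, and the basal anchoring list stands highest with 17 of 22.

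By chromosome, core sites made up 20.8% (chromosome 17) to 28.3% (chromosome 15) of the pairs on the 19 autosomes. On the X chromosome they made up 10 of 94 pairs (10.6%, 5.88 to 18.5). The median pileup of the X pairs was 76 in WT and 114 in alphaKO, against 102 and 159 on autosomes, and the median recovered background was 6.09 and 3.85 against 8.31 and 6.63. The fold enrichment was closer, with 10.8 against 11.5 in WT and 22.8 against 21.1 in alphaKO. With places of high background left out, 14 of the 94 X pairs and 2036 of 6952 autosomal pairs reached the WT pileup limit. The full rule kept 10 of the X pairs and 1649 of the autosomal pairs. Why the X share was lower was not tested. The strongest X site lay 12.4 kb from Rap2c, a small GTPase (349 and 525), and sites inside Mid1, a ubiquitin ligase (314 and 225), and Slc6a8, the creatine transporter (305 and 231), followed.

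The limits of the rule cut through a continuous range. At the upper ratio limit Barx2, Mboat1 and Stx7 lay just inside, and Txndc17, Trib2 and Insc just outside. At the lower limit sites named by Zswim6, Stmn2 and Slain2 lay just inside, and those of Efna1, Gse1 and Fat2 just outside. Sites of Cacna2d2, Dag1 and Fgf15 had a WT pileup of 150, and sites of Zzz3, Ly86 and Atf3 missed it with 149. By distance Sec22c (1001 bp), Krt5 (1002 bp) and Jade2 (1004 bp) were inside and Pak6 (968 bp), Lgals7 (970 bp) and Slc25a28 (1000 bp) outside. A WT pileup of 150 to 159 was found at 150 core sites, and 199 pairs that met the other limits had 140 to 149.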

How the data were processed

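p63 ChIP-seq peak lists of 1 WT and 1 alphaKO library were analysed. The submitters' processing notes name Bowtie2, MACS2 (2.1.1.20160309) and mm10. Caller options, control library and duplicate handling were not given in the sources used here. Deposited by the authors, per the file headers, were a summit pileup (signal), a fold enrichment (a ratio to local background), and −log10 p-value and −log10 q-value for every peak. The lists give no read totals, so depth per library is unknown. No replicates were pooled, as every list stems from 1 library.

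Peaks were paired by largest overlap (at least 1 bp). Dividing pileup plus 1 by the fold and subtracting 1 recovered the local background. Genes and sequences came from RefSeq GRCm38.p6. With no genome sequence used here, planned motif windows around all summits were replaced by promoter windows holding a summit. The half-site pair with A or T in the middle was chosen only once the data had been seen. The strand of 1862 overlapping opposite windows was checked, and all read alike.

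The members and gene lists were chosen with earlier results of these data known. Sites named were the 10 with the highest WT pileup, up to 4 genes per list, up to 8 genes with most sites, the 5 farthest, the 3 largest summit distances and the 3 on each side of each limit. The top 10 by that rule were all in the high-background group, so the next 10 are described, and further sites were named after their values were seen. A gene that the rule takes is not reported here.

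No test between genotypes was made. Alternatives were other pairing, limits, scaling and gene ends. Strength by alphaKO pileup was added after the data were seen. On simulated peak lists 376 of 376 planted core sites were found, with 0 false ones. The planted ratios and gene distances lay well away from the limits, so this only checked the code. Calculations used pandas 2.3.3, NumPy 2.4.6 and SciPy 1.17.1 in Python 3.11.15, and figures matplotlib 3.10.9.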

Additional observations from a re-analysis of the deposited data

How the results depend on the processing

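The number of core sites was 2786 with a WT pileup limit of 100 and 1062 with a limit of 200, beside 1676. The share inside gene bodies was 57.0% with an evenness limit of 0.5, the median summit distance was 6 bp with a pileup limit of 100, and the median distance to a gene end was 30.4 kb, beside 20.3 kb, when sites had to lie more than 5 kb from gene ends. The share with another p63 peak within 50 kb, 86.6%, was 84.0% and 88.2% with pileup limits of 100 and 200, 84.7% when the same number of sites was taken by WT fold, 84.5% with −log10 q of at least 10, and 83.7% when strength was set by alphaKO pileup, an alternative chosen after seeing the data. The other 86 of 96 recomputed values moved by less than their intervals or, for counts, less than 1.5 times. The number of list genes with a core site ran from 77 to 135 around 110. No paired analysis was possible because each genotype had 1 library. Without read totals, depth limits what can be said of sites absent from a list.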
